A study of Mus musculus with 59 samples.

Results

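The adrenergic receptors and cAMP signalling genes of brown adipose tissue (BAT) described here are 9 genes, taken by symbol: the receptors Adrb1, Adrb3 and Adra1a, the G protein gene Gnas, the adenylyl cyclases Adcy3 and Adcy4, the phosphodiesterases Pde3b and Pde4d, and the protein kinase A subunit Prkar2b. They are 9 of the 55341 genes listed in each count table. All 9 passed the limit of a mean normalized count above 10, under which 13003 genes were tested in wild-type (WT) mice of the thyroid hormone (TH) experiment, 14178 in all mice of that experiment, 13267 in the temperature experiment and 12932 in the diet experiment.

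RNA-seq counts came from BAT, the heat-producing fat, of 59 male C57BL/6J mice aged 8 to 12 weeks, in 3 experiments with 15 groups. In the TH experiment (30 mice), every mouse received propylthiouracil (PTU), a drug that blocks the synthesis of thyroid hormone. WT mice were sampled under PTU alone or 3, 6, 12 or 24 h after an injection of T3 and T4 (4 mice per group), and BATKO mice under PTU alone or 24 h after the injection (5 mice per group). In the temperature experiment (16 mice), control (CTRL) mice were kept at 4 °C (3 mice) or 30 °C (4 mice) and BATKO mice at 4 °C (4 mice) or 30 °C (5 mice), with 24 h given for the exposure. In the diet experiment (13 mice), the CTRL group was split between a high-fat diet (HFD, 4 mice) and chow (4 mice) and the BATKO group likewise (3 on the HFD, 2 on chow), with 3.5 days given. The genetic change of the BATKO mice and the promoter that drives it are not given in the sources used here, so that no targeted gene could be checked. What the CTRL mice of the last 2 experiments carry is not given either.

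Noradrenaline released by sympathetic nerves is the main signal that switches brown fat on. Beta-adrenergic receptors act through the stimulatory G protein, whose alpha subunit is encoded by Gnas, on adenylyl cyclases that make cAMP, and cAMP releases the catalytic subunits of protein kinase A from their regulatory subunits, which leads to lipolysis and heat production. Phosphodiesterases break cAMP down, and alpha 1 receptors such as Adra1a act through another G protein and calcium.

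The libraries held between 7612059 and 18073627 counts, and within the TH experiment those of BATKO mice (at least 13593987) were mostly deeper than those of WT mice (at most 14615534), so that genotype and library set cannot be told apart there. Mitochondrial genes took 39.25% to 55.66% of the counts. No pair of libraries within a group agreed within sampling noise (91 pairs, chi-square over degrees of freedom at least 6.81). Brown fat markers were high in every library (Ucp1 was at least 1591 normalized counts and Adipoq at least 3428), which goes with the tissue label. The CTRL mouse 19 at 30 °C stood apart, with 1591 for Ucp1 against 7624 to 14142 in the other mice of its group. The 6 skeletal muscle markers summed to between 6.94 and 83811 normalized counts among single mice of the temperature experiment, and both extremes were mice at 30 °C. A normalized count is a count scaled to the mean library of the same experiment, so that levels are comparable within an experiment only.

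Levels between genes were compared per length, as library-scaled counts (CPM) per kilobase of merged exons. In WT mice under PTU, Prkar2b, the main regulatory subunit of protein kinase A in fat, was the highest of the 9, at 438.9 ± 64.0 CPM per kilobase (SD, n = 4). Gnas followed at 110 ± 7.94 and Adrb3, the receptor typical of adipocytes, at 94.5 ± 4.88. Pde3b, the cAMP phosphodiesterase that insulin activates in fat, stood at 42.6 ± 8.46, Adcy3 at 17.4 ± 3.58 and Pde4d at 14.2 ± 4.17, the last pair overlapping within their SD. Adrb1 (5.93 ± 2.18) and Adra1a (5.61 ± 0.448) did not differ beyond their spread, and Adcy4 was the lowest at 1.21 ± 0.455. In CTRL mice at 4 °C the order was led by Gnas, at 508 ± 43.2 (SD, n = 3), before Prkar2b at 406.4 ± 81.6 and Adcy3 at 111 ± 16.0. The annotated exons used for the lengths include those of all transcripts, so that a gene with many of them, such as Gnas with 24 or Pde4d with 20, is set lower than by a single transcript.

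**Figure D1:**
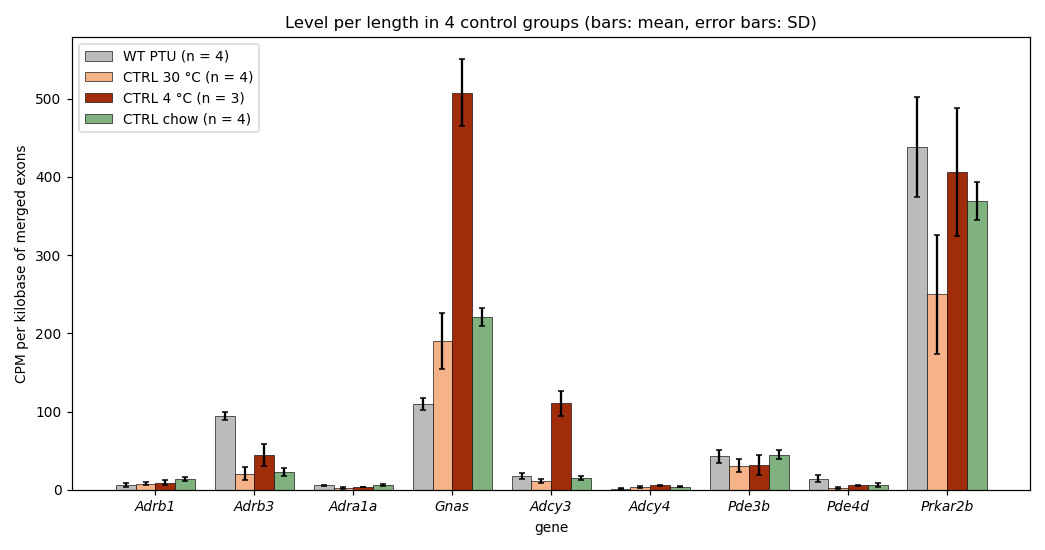
Level of the 9 genes per length in 4 control groups. The vertical axis gives CPM per kilobase of merged exons, bars are means and error bars SD over mice, and Prkar2b and Gnas are the highest in each of the 4 groups.

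All positions are in GRCm38. Adrb1 lies at chr19:56722199-56733113 on the plus strand, Adrb3 at chr8:27225776-27250616 (minus), Adra1a at chr14:66635251-66771168 (plus), Gnas at chr2:174284320-174346744 (plus) and Adcy3 at chr12:4133103-4213525 (plus). Adcy4 lies at chr14:55769057-55784095 (minus), Pde3b at chr7:114415281-114539251 (plus), Pde4d at chr13:108449948-109953461 (plus) and Prkar2b at chr12:31958476-32061296 (minus). Genes on the other strand share 839 exonic bases with Adrb3 (Gm45470, 24.85% of its merged exons), 1380 with Adcy3 (Cenpo, 22.09%) and 988 (Nespas) and 1469 (Gm20721) with Gnas. The strand setting of the counting is not given in the sources used here, so reads in these stretches cannot be told apart, and values of these 3 genes carry that uncertainty.

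Promoter windows, from 250 bases before to 50 bases after an annotated start, were found in the RefSeq sequences of GRCm38.p6 for 6 of the 9 genes, in 11 windows, and none was found for Adrb3, Adra1a and Pde3b. They were searched on both strands for the cAMP response element TGACGTCA, for the shorter form TGACG, which sits inside the full element, and for AGGTCA, a core motif that thyroid hormone receptors bind. Among 32851 windows of all genes, 1.79% held the first, 20.81% the second and 16.26% the third. Of the 11 windows, 0 held the full element, 4 held the shorter form (1 of Adrb1 and 3 of Gnas, 2 of which overlap each other) and 0 held AGGTCA. A few windows are shown, with the shorter form in capitals, 5′ to 3′ on the plus strand. They are a window of Adrb1 and a window of Gnas, which hold it, and a window of Adcy3, which does not. Adcy3 had the largest rise in the cold among the 9 genes. A match is a run of letters and not a shown binding site.
Adrb1, chr19:56721867-56722166: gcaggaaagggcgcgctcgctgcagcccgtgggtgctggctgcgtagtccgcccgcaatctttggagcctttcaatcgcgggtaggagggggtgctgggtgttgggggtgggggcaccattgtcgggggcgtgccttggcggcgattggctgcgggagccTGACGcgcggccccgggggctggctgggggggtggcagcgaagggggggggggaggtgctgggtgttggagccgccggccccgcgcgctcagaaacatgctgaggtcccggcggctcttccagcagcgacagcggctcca
Gnas, chr2:174329756-174330055: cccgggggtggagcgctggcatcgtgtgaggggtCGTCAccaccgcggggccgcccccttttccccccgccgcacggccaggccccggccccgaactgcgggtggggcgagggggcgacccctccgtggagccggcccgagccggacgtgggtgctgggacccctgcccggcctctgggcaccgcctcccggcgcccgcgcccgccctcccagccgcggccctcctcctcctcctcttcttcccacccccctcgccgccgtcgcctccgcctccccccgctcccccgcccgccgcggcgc
Adcy3, chr12:4133147-4133446: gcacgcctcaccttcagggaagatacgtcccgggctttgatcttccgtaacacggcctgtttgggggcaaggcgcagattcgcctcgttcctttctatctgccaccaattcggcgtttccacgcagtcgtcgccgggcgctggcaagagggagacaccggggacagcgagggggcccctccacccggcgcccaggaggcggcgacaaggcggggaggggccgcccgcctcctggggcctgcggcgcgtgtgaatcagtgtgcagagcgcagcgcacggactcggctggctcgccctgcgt

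The question of the TH experiment was how the BAT of hypothyroid mice responds over time to hormone. In WT mice, Adrb3 fell and partly returned, Gnas rose, Pde3b and Pde4d fell, Adcy3 rose and then dropped, and Prkar2b fell late. The number of the 9 genes that passed the test against PTU was 0 after 3 h, then 4 (6 h), 5 (12 h) and again 4 (24 h), beside 9.19%, 23%, 25.7% and 32.7% of all genes tested. The 0 at 3 h came from edgeR; 3 of the 9 had an unadjusted p below 0.05 and DESeq2 called 1. At 24 h the median log2 fold change of the 9 genes was -0.45 and that of all genes 0.01. The 4 comparisons share the same 4 PTU mice. In bulk tissue, fewer cells of a type and less RNA per cell cannot be told apart, and this holds for every value below.

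**Figure D2:**
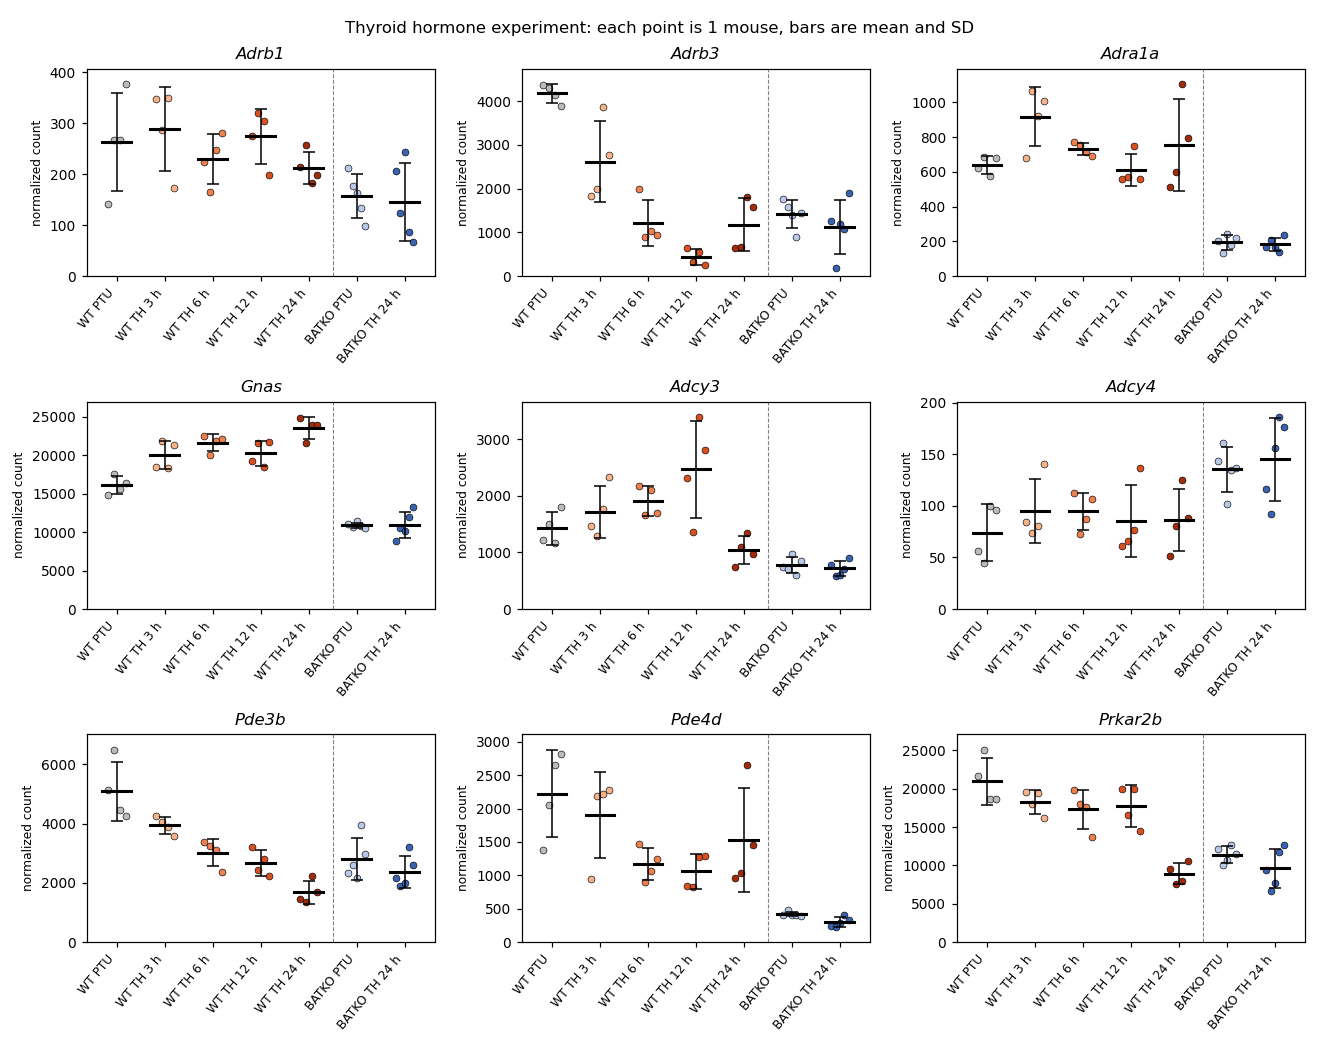
Normalized counts of the 9 genes in the TH experiment, 1 panel per gene, by group. Points are mice, the long bar is the mean and the whiskers are SD. Adrb3 falls from 3893 to 4381 counts under PTU to 263 to 642 at 12 h in WT mice, and BATKO mice with and without hormone overlap in each panel.

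Adrb3 encodes the beta 3 receptor, through which noradrenaline acts on mature adipocytes. Under PTU the WT mice had 4381, 4302, 4135 and 3893 normalized counts. At 3 h the values were 1833, 2000.1, 3861 and 2780.3, at 6 h 1998, 888, 1036 and 949, and at 12 h 642, 312, 551 and 263. At 24 h they were 649, 673, 1807 and 1591. All treated mice lay below all PTU mice at each time, and the 12 h mice lay below all mice of the other times. The log2 fold change against PTU was -0.69 ± 0.33 (SE; adjusted p = 0.202 by edgeR) at 3 h, -1.79 ± 0.34 (adjusted p = 0.000754) at 6 h, -3.22 ± 0.37 (adjusted p = 1.36e-06) at 12 h, a 9.32-fold lower level, and -1.82 ± 0.34 (adjusted p = 0.000344) at 24 h. Between times, Adrb3 fell from 6 to 12 h by 1.43 on the log2 scale (adjusted p = 0.0317 by edgeR) and rose from 12 to 24 h by 1.40 (adjusted p = 0.0133). The step from 6 to 12 h lost its call without mouse B12 at 6 h (-1.10, adjusted p = 0.122), which had the highest value of its group, and without 4 other single mice. Without that mouse the step from 3 to 6 h, -1.10 with adjusted p = 0.0806, became a call (-1.43, adjusted p = 0.0369).

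Adrb1 and Adra1a, the other receptors, passed the test at none of the 4 times in edgeR. Adrb1, the beta 1 receptor found on precursor cells and on adipocytes, had 140.6 to 377 normalized counts under PTU and 164.5 to 349 in the 16 treated mice, with log2 fold changes between -0.31 and 0.11. Adra1a had 577 to 684 under PTU and 682.5, 1066, 919.5 and 1005 at 3 h. In Adra1a, 3 of the 4 mice at 3 h were above every PTU mouse and the lowest was inside their range, so that the groups overlapped (0.50 ± 0.18, adjusted p = 0.0828 by edgeR). Without that mouse, B7, the difference was a call (0.62, adjusted p = 0.0378).

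Gnas encodes the alpha subunit of the stimulatory G protein, and from other promoters of the same locus further proteins that a gene count does not separate. WT mice under PTU had 14851, 17578, 15629 and 16405 normalized counts. The 3 h mice had 18424, 21909, 18409 and 21386, the 6 h mice 22486, 19996, 21842 and 22104, the 12 h mice 19317, 21625, 18440.0 and 21664, and the 24 h mice 24908, 21567, 23951 and 23878. Every treated mouse was above every PTU mouse. The rise was modest and even, with log2 fold changes of 0.29 ± 0.10 at 3 h (adjusted p = 0.0588 by edgeR), 0.41 ± 0.10 at 6 h (adjusted p = 0.00416), 0.34 ± 0.10 at 12 h (adjusted p = 0.0119, and 0.0524 without a filter) and 0.55 ± 0.10 at 24 h (adjusted p = 0.000167). No step between neighbouring times passed the test.

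Adcy3 and Adcy4 make cAMP from ATP. Adcy3 had 1223, 1508, 1160.3 and 1798 normalized counts under PTU and 2315, 1368, 3392 and 2804 at 12 h, a rise of 0.80 ± 0.24 on the log2 scale (adjusted p = 0.0146 by edgeR), with 3 of the 4 mice above every PTU mouse. By 24 h the values were 751, 1095, 1347 and 972, below all mice at 12 h, and the step from 12 to 24 h was -1.26 ± 0.24 (adjusted p = 0.00186). Against PTU the 24 h value was -0.45 ± 0.23 (adjusted p = 0.147). Without mouse B21 the rise at 12 h was 0.61 (adjusted p = 0.0730). Adcy4 stayed low, between 44.3 and 140.8 normalized counts in the 20 WT mice, and its log2 fold changes of 0.18 to 0.34 did not pass the test at any time.

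Pde3b and Pde4d break cAMP down. Pde3b fell by steps: WT mice under PTU had 5140, 6493, 4445 and 4267 normalized counts, those at 3 h 4263, 4049, 3871 and 3593, those at 6 h 3383, 3234, 3108 and 2366, those at 12 h 3224, 2447, 2809 and 2223, and those at 24 h 1458, 1348, 2232 and 1698. Every treated mouse was below every PTU mouse, narrowly so at 3 h. The log2 fold change was -0.39 ± 0.16 at 3 h (adjusted p = 0.132 by edgeR), -0.77 ± 0.16 at 6 h (adjusted p = 0.00162), -0.92 ± 0.16 at 12 h (adjusted p = 0.000215) and -1.60 ± 0.16 at 24 h (adjusted p = 2.51e-07), and the step from 12 to 24 h was -0.68 ± 0.16 (adjusted p = 0.00979). Pde4d varied more between mice. It had 1373, 2061, 2650.0 and 2820.5 normalized counts under PTU, 905 to 1469 at 6 h and 824 to 1285 at 12 h, a fall of 0.95 (adjusted p = 0.0296 by edgeR) and of 1.07 (adjusted p = 0.0135) on the log2 scale. At 24 h the values spread from 965 to 2657 and the difference of -0.55 ± 0.30 did not pass (adjusted p = 0.179). Without mouse B27, the highest of that group, it was -0.95 (adjusted p = 0.0144), and the 6 h call was lost without any of 5 single mice.

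Prkar2b encodes the RII beta subunit that holds protein kinase A inactive until cAMP binds. It had 21628, 25077, 18660.3 and 18621 normalized counts under PTU and 13684 to 20012 in the 12 mice at 3 to 12 h, where each group overlapped the PTU range and held mice below it, with log2 fold changes of -0.22, -0.30 and -0.23 that did not pass. At 24 h the mice had 9520.4, 7575, 7965 and 10569, all below every earlier mouse. The difference was -1.24 ± 0.14 (adjusted p = 1.06e-06 by edgeR) against PTU and -1.01 ± 0.14 (adjusted p = 0.000141) against 12 h. Beside these falls, Adipoq, one of the 8 brown fat markers, was at 3695 to 4518 normalized counts at 24 h against 16234 to 18208 under PTU, while the summed list of those markers was 181131 to 272559 against 203777 to 230978. Among the 8 marker sums, none was apart from PTU at 24 h, but the brown fat sum joins genes that moved in opposite directions. In it, Ucp1 was 100459 to 191139 at 24 h and 58896 to 80187 under PTU, while Adipoq fell. The overlap of that sum thus does not show unchanged levels of its members. At 3 h the endothelial (4760 to 5003 against 4361 to 4716 under PTU) and mural sums (3497 to 3940 against 3015 to 3375) lay above PTU. At 6 h the brown fat sum lay above PTU (252639 to 289372 against 203777 to 230978). Within it, Ucp1 was 126776 to 150106 at 6 h against 58896 to 80187 under PTU, while Adipoq, at 15255 to 16913, overlapped its PTU range. At 12 h the endothelial sum lay below PTU (3274 to 4131). The part of these in the changes at each time was not tested.

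For the steps between times, 0 of the 9 genes passed from 3 to 6 h (2.8% of all genes; 3 of the 9 had an unadjusted p below 0.05 in edgeR, and DESeq2 called 0), 1 from 6 to 12 h (2.95%) and 4 from 12 to 24 h (11.4%).

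In BATKO mice, 24 h of hormone moved none of the 9 genes past the test: edgeR called 0 of the 9, 0 had an unadjusted p below 0.05, and DESeq2 called 0. Over all genes the count was also 0 (0%), with 673 genes at an unadjusted p below 0.05 and 0 by DESeq2. Adrb3 had 1769, 1572, 1402, 892.5 and 1453 normalized counts under PTU and 1271, 183, 1191, 1068 and 1911 with hormone, and the groups overlapped. Pde3b was at 2171 to 3954 and 1884 to 3225, Prkar2b at 10041 to 12632 and 6699 to 12657, and Gnas at 10598 to 11403 and 8791 to 13309. The 95% intervals of the log2 fold changes were -1.09 to 0.42 for Adrb3, -0.58 to 0.10 for Pde3b, -0.54 to 0.06 for Prkar2b and -0.19 to 0.20 for Gnas.

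The difference between the responses, BATKO minus WT, was tested as an interaction, in which 3 of the 9 genes passed, beside 12.3% of all genes. Pde3b fell less in BATKO mice by 1.35 ± 0.25 on the log2 scale (adjusted p = 0.000738 by edgeR) and Prkar2b by 0.99 ± 0.22 (adjusted p = 0.00348). Gnas rose less, with a difference of -0.54 ± 0.14 (adjusted p = 0.0109). These calls held under every alternative run, including each mouse left out. For Adrb3 the difference was 1.49 ± 0.56 (adjusted p = 0.0764), and 1.76 (adjusted p = 0.00796) without BATKO mouse 8, whose 183 counts lay far below the other 4. The other 5 genes had differences between -0.34 and 0.33, none past the test.

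**Figure D3:**
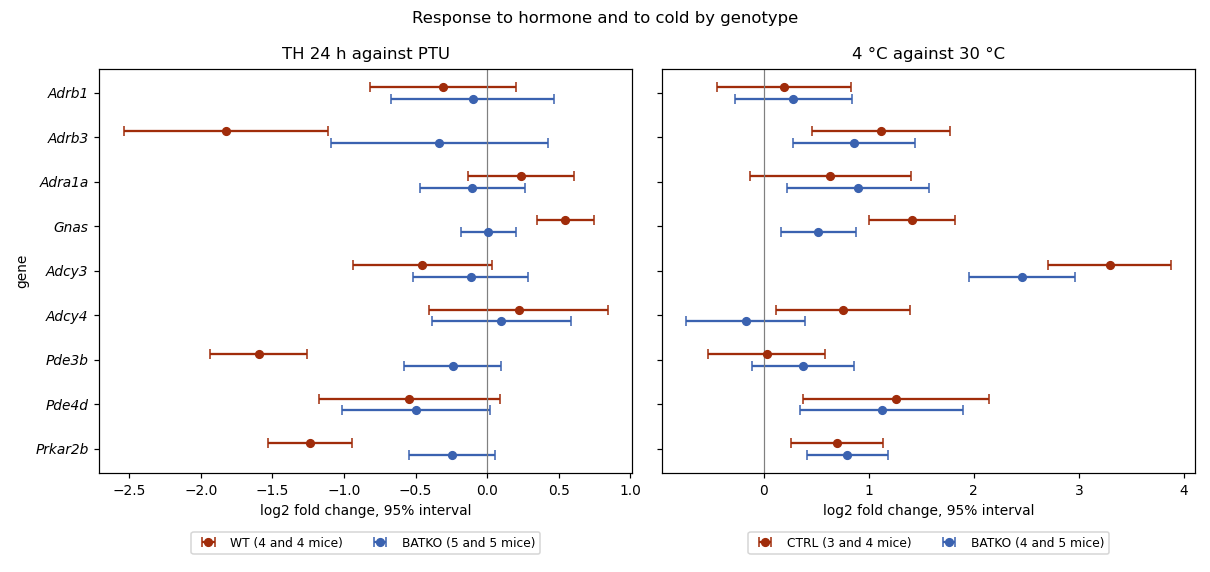
Log2 fold changes of the 9 genes with 95% intervals by edgeR, for 24 h of hormone against PTU (left: WT in red, BATKO in blue) and for 4 °C against 30 °C (right: CTRL in red, BATKO in blue). On the left the WT points of Adrb3, Pde3b and Prkar2b lie at -1.82, -1.60 and -1.24 and the BATKO intervals include 0; on the right Adcy3 lies at 3.29 and 2.46.

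The BATKO mice differed from WT mice already under PTU, where all 9 genes passed, 8 lower and 1 higher, beside 70.3% of all genes tested, a background against which the count of the 9 says little. Pde4d was lowest relative to WT, with 391 to 473 normalized counts against 1373 to 2820.5 (-2.42 ± 0.27, adjusted p = 3.15e-09 by edgeR), then Adra1a with 131 to 244 against 577 to 684 (-1.71 ± 0.18, adjusted p = 1.73e-09) and Adrb3 with 892.5 to 1769 against 3893 to 4381 (-1.56 ± 0.39, adjusted p = 0.000817). For Prkar2b, Adcy3, Pde3b, Adrb1 and Gnas the differences were -0.88, -0.87, -0.86, -0.74 and -0.56. The values of Adrb1 overlapped between the groups. Adcy4 was higher, with 101.4 to 160.4 against 44.3 to 99.6 (0.86 ± 0.27, adjusted p = 0.00546). Beside the 8 lower genes, the 8 summed brown fat markers were 135094 to 162893 in BATKO and 203777 to 230978 in WT mice under PTU. Beside Adcy4, the 7 summed endothelial markers were 5909 to 6679 and 4361 to 4716, and the 5 summed mural markers 4153 to 4750 and 3015 to 3375. None of these 3 marker sums overlapped between the genotypes. A large part of the gap in the brown fat sum was Ucp1, at 12401 to 22843 in BATKO and 58896 to 80187 in WT mice. Adipoq, of the same list, was 9186 to 14695 and 16234 to 18208. The part of these markers in the differences was not tested.

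At 24 h after hormone, 6 of the 9 genes passed, beside 69.7% of all genes. Adra1a (-2.05), Pde4d (-2.38), Gnas (-1.10) and Adcy3 (-0.54) were lower in BATKO mice, Adcy4 (0.74) and Pde3b (0.49) higher. The calls of Adcy3, Adcy4 and Pde3b were lost without single mice, with adjusted p of up to 0.117, 0.0818 and 0.0879 by edgeR. The summed endothelial markers (6089 to 8622 in BATKO, 4219 to 4891 in WT mice) and mural markers (3886 to 5348, 2889 to 3514) again lay apart. The summed brown fat markers overlapped (124093 to 207222, 181131 to 272559), but members of that list lay apart in opposite directions. Ucp1 was lower in BATKO mice (14506 to 31618 against 100459 to 191139) and Adipoq higher (8277 to 12928 against 3695 to 4518). The part of these markers was not tested. Adrb3 was at 183 to 1911 normalized counts in BATKO and 649 to 1807 in WT mice (-0.07 ± 0.39, adjusted p = 0.877 by edgeR), and Prkar2b at 6699 to 12657 and 7575 to 10569 (0.11 ± 0.16, adjusted p = 0.529). The levels of these 2 genes in hormone-treated WT mice thus lay within the range of BATKO mice, where WT mice under PTU had lain above all of them.

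The temperature experiment compared mice in the cold with mice at 30 °C, near thermoneutrality, where brown fat receives little sympathetic drive. In CTRL mice 6 of the 9 genes rose in the cold and none fell, beside 49.1% of all genes (26.5% up), and in BATKO mice 6 rose and none fell, beside 40.3% (21.4% up). The median log2 fold change of the 9 was 0.76 in CTRL and 0.80 in BATKO mice, and that of all genes -0.01 and -0.02. Adcy3, Gnas, Pde4d, Adrb3 and Prkar2b passed in both genotypes, Adcy4 in CTRL mice and Adra1a in BATKO mice. Beside these rises, the summed brown fat markers were 286677 to 347234 at 4 °C and 69989 to 87185 at 30 °C in CTRL mice (196696 to 294298 and 72647 to 89297 in BATKO mice). Ucp1 made up a large part of the sum at 4 °C in CTRL mice (145819 to 186808, against 1591 to 14142 at 30 °C). In BATKO mice Ucp1 was 73899 to 154509 and 4644 to 12740. Adipoq, of the same list, was lower in the cold in CTRL mice (3428 to 4604 against 6996 to 10113). It overlapped in BATKO mice (5552 to 7197 against 6709 to 8668). The summed red blood cell markers were 7632 to 16955 and 1767 to 3283 in CTRL mice (7619 to 11097 and 1806 to 4826 in BATKO mice). In CTRL mice the summed markers of fibroblasts (2998 to 3170 at 4 °C, 4299 to 5947 at 30 °C), immune cells (357 to 431, 493 to 879) and Schwann cells (117 to 338, 365 to 621) were lower in the cold without overlap, while in BATKO mice these 3 sums overlapped. The part of any of these in the rises was not tested.

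**Figure D4:**
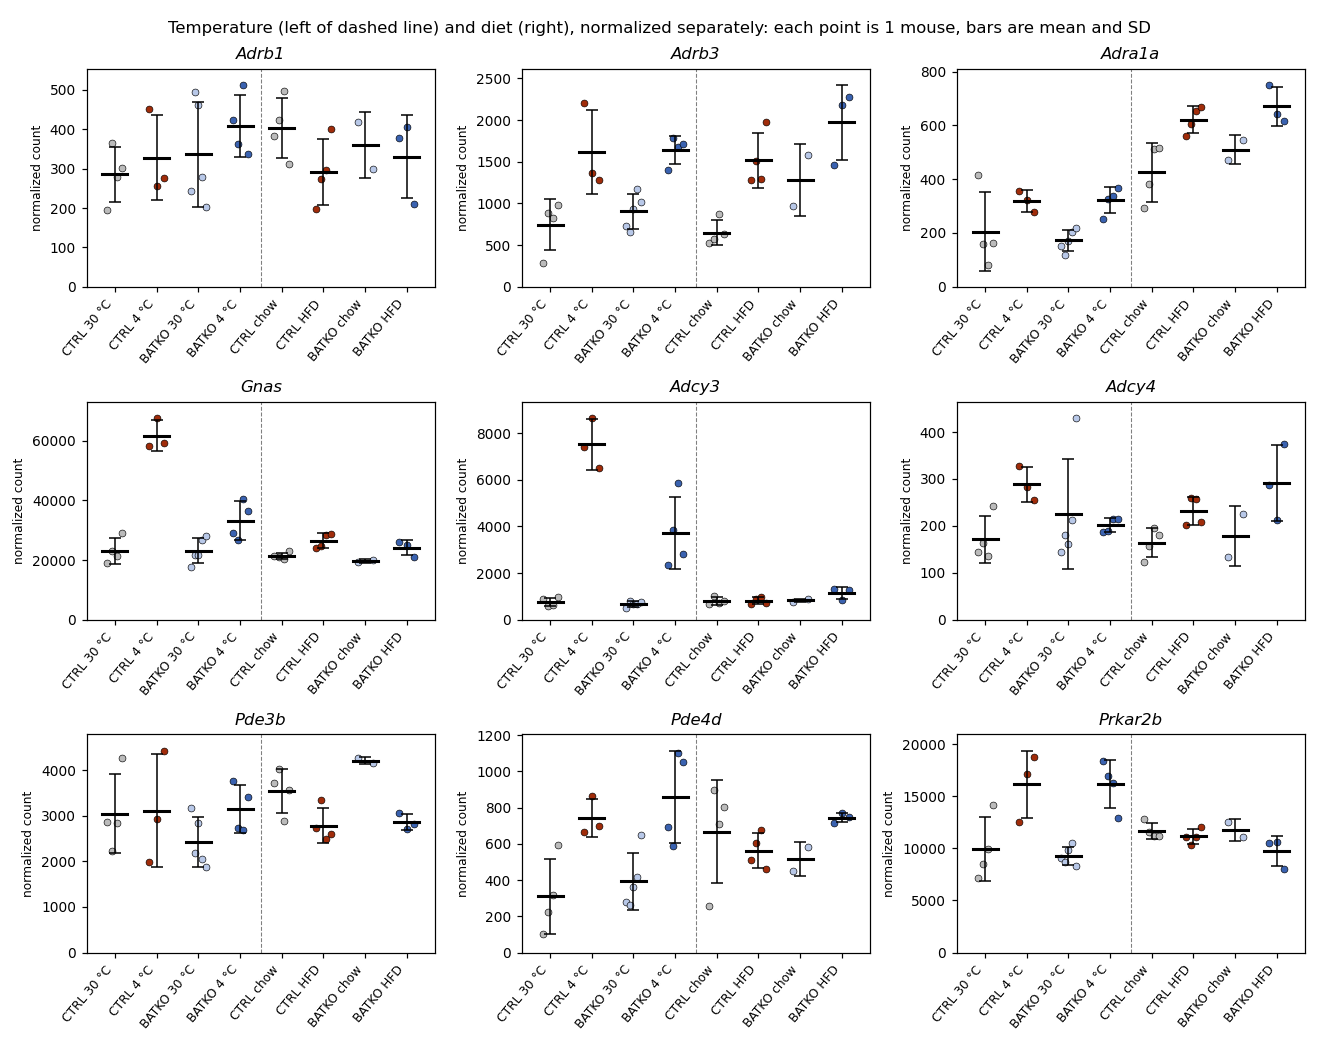
Normalized counts of the 9 genes in the temperature experiment (left of the dashed line) and the diet experiment (right), which were normalized separately. Points are mice, the long bar is the mean and whiskers are SD. Adcy3 lies between 6506 and 8669 in CTRL mice at 4 °C and between 594 and 956 at 30 °C.

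Adcy3 had the largest change. CTRL mice at 4 °C had 7397, 8669 and 6506 normalized counts and those at 30 °C 877, 594, 643 and 956, which is 9.80-fold (log2 fold change 3.29 ± 0.28, adjusted p = 1.97e-07 by edgeR). BATKO mice had 2349, 3829, 5864 and 2837 at 4 °C and 490.2, 789, 683, 653.5 and 768 at 30 °C (2.46 ± 0.24, adjusted p = 1.69e-06). At 4 °C every BATKO mouse was below every CTRL mouse. That difference was -1.02 ± 0.26 with an adjusted p of 0.0535 by edgeR, and it was a call with DESeq2 (adjusted p = 0.0044), with DESeq2's size factors (0.0455), with a mean count above 50 (0.0491) and without a filter (0.0309). Without BATKO mouse 11, the highest of its group, it was -1.35 (adjusted p = 0.00672). The difference of the cold responses was -0.83 ± 0.35 (adjusted p = 0.21). Adcy4 rose in CTRL mice, with 327.5, 283 and 254 at 4 °C and 143, 163, 135 and 243 at 30 °C (0.76 ± 0.30, adjusted p = 0.0475 by edgeR), a call lost without any of 6 of the 7 mice. In BATKO mice it was 187 to 215 at 4 °C and 143 to 431 at 30 °C (-0.17 ± 0.27, adjusted p = 0.637).

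Gnas rose in the cold in CTRL mice to 58276, 67808 and 59208 normalized counts from 19096, 22873, 21453 and 29179 (1.42 ± 0.19, adjusted p = 1.89e-05 by edgeR). In BATKO mice it was 28955, 26867, 40644 and 36621 at 4 °C and 17694 to 27942 at 30 °C, with overlap (0.52 ± 0.17, adjusted p = 0.022), a call that was lost without BATKO mouse 11, 12 or 13 and without a filter (adjusted p = 0.0516). The BATKO values at 4 °C all lay below the CTRL values, and the difference of -0.89 ± 0.19 passed the test (adjusted p = 0.0266). Beside it, the summed fibroblast markers were 3237 to 6345 in BATKO and 2998 to 3170 in CTRL mice at 4 °C, without overlap, and the summed brown fat markers had medians of 251319 and 333863, with overlap, and their part in the difference was not tested. The Gnas difference no longer passed in a fit of only those 2 groups (adjusted p = 0.0609) or without any of 5 of the 7 mice. The responses differed by -0.90 ± 0.26 (adjusted p = 0.0873), which DESeq2 called (adjusted p = 0.0149). At 30 °C the genotype difference in Gnas was 0.00, with a 95% interval of -0.36 to 0.36.

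Among the receptors, Adrb3 had 2200.4, 1364 and 1286 normalized counts in CTRL mice at 4 °C and 289, 883.5, 829.5 and 981 at 30 °C, without overlap (1.12 ± 0.31, adjusted p = 0.00704 by edgeR). In BATKO mice it was 1395 to 1786 and 661 to 1173, also without overlap (0.86 ± 0.27, adjusted p = 0.0192; without BATKO mouse 8, 0.81 and 0.0528). Without CTRL mouse 1, the CTRL difference was 0.80 (adjusted p = 0.0633), and without mouse 19 it was 0.85 (adjusted p = 0.00606). Adra1a rose in BATKO mice from 118 to 217 to 253 to 369 (0.90 ± 0.32, adjusted p = 0.0332), a call that was lost without any of 6 of the 9 mice. In CTRL mice it was 277 to 357 at 4 °C and 417.5, 158, 82.2 and 162 at 30 °C (0.63 ± 0.36, adjusted p = 0.158 by edgeR). The high value at 30 °C was that of mouse 19, and without it the difference was 1.25 (adjusted p = 0.000955). Adrb1 had 257 to 451 at 4 °C and 196 to 366 at 30 °C in CTRL mice and did not pass in either genotype (0.20 ± 0.30 and 0.28 ± 0.26).

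Pde4d rose in the cold, with 666, 865.5 and 700.2 normalized counts in CTRL mice at 4 °C against 104, 225, 319 and 594 at 30 °C (1.26 ± 0.42, adjusted p = 0.0196 by edgeR). In BATKO mice the values were 694, 591, 1105 and 1050.1 against 260.1 to 647 (1.13 ± 0.37, adjusted p = 0.022). Both calls depended on single mice: they were lost without CTRL mice 2 or 20, and without BATKO mice 11, 12 or 14. Pde3b, which had fallen with hormone, did not pass in the cold, with log2 fold changes of 0.03 (95% interval -0.53 to 0.59) in CTRL and 0.38 (-0.11 to 0.86) in BATKO mice. Prkar2b was 12510 to 18741 in CTRL mice at 4 °C and 7129 to 14138 at 30 °C (0.70 ± 0.21, adjusted p = 0.01 by edgeR), and 12921 to 18335 against 8294 to 10470.0 in BATKO mice, without overlap (0.80 ± 0.18, adjusted p = 0.00245).

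Between genotypes, 1 of the 9 genes passed at 4 °C (Gnas), beside 2.16% of all genes, and edgeR called 0 at 30 °C, beside 0.00754%, with 0 at an unadjusted p below 0.05 and 0 by DESeq2. In the difference of the cold responses edgeR called 0 of the 9, beside 1.12%, 3 of the 9 had an unadjusted p below 0.05 and DESeq2 called 1. At 4 °C the levels of Adrb3 (1395 to 1786 against 1286 to 2200.4) and Prkar2b (12921 to 18335 against 12510 to 18741) overlapped widely between BATKO and CTRL mice, with 95% intervals of the log2 difference of -0.64 to 0.68 and -0.44 to 0.44.

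The diet experiment compared the HFD with chow. In CTRL mice 1 of the 9 genes passed, beside 3.94% of all genes. It was Adrb3, with 1287, 1510.0, 1288.5 and 1978 normalized counts on the HFD and 520, 577, 869 and 634 on chow, without overlap (1.22 ± 0.21, adjusted p = 0.00688 by edgeR), a call that held under every alternative run. Beside it, the summed brown fat markers were 88397 to 106237 on the HFD and 72972 to 87728 on chow, and the 7 summed immune markers 507 to 1551 and 368 to 400, neither with overlap, and their part in the change was not tested. Adra1a was 560 to 669 on the HFD and 292 to 514.5 on chow (0.55 ± 0.16, adjusted p = 0.0655) and Gnas 24074 to 28868 and 20267 to 22931 (0.31 ± 0.10, adjusted p = 0.0889), both without overlap and both called by DESeq2 (adjusted p of 0.0212 and 0.0322). Adcy4 was 202 to 260 and 124 to 195.5, also without overlap (0.50 ± 0.20, adjusted p = 0.171 by edgeR, and 0.0447 without a filter). Pde3b was 2483 to 3340.4 and 2883 to 4019 (-0.35 ± 0.12, adjusted p = 0.11 by edgeR), and Adcy3 674 to 963 and 657 to 1032 (0.00 ± 0.17).

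In BATKO mice edgeR called 0 of the 9 between diets, beside 0.0696% of all genes, with 4 of the 9 at an unadjusted p below 0.05 and 1 (Pde3b) by DESeq2. Adrb3 was 1458, 2183 and 2283 on the HFD and 972 and 1587 on chow (0.63 ± 0.27, adjusted p = 0.297 by edgeR). The genotypes were compared on the HFD (0 of 9 by edgeR beside 0% of all genes, 1 at an unadjusted p below 0.05 and 0 by DESeq2) and on chow (0 of 9 beside 0%, 1 at an unadjusted p below 0.05 and 1 by DESeq2). The difference of the diet responses gave 0 of 9 beside 0%, with 0 at an unadjusted p below 0.05 and 0 by DESeq2. Over all genes those 3 comparisons had 691, 1024 and 740 genes at an unadjusted p below 0.05, and DESeq2 called 12, 31 and 0. On chow Adrb3 was higher in both BATKO mice than in the 4 CTRL mice (0.98 ± 0.25, adjusted p = 0.312 by edgeR and 0.0349 by DESeq2), with 2 mice in that group. Beside it, the summed immune (945 to 1243 in BATKO, 368 to 400 in CTRL mice), fibroblast (7694 to 7715, 3559 to 5563) and Schwann markers (132 to 142, 206 to 520.0) did not overlap, and their part in the difference was not tested.

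**Figure D5:**
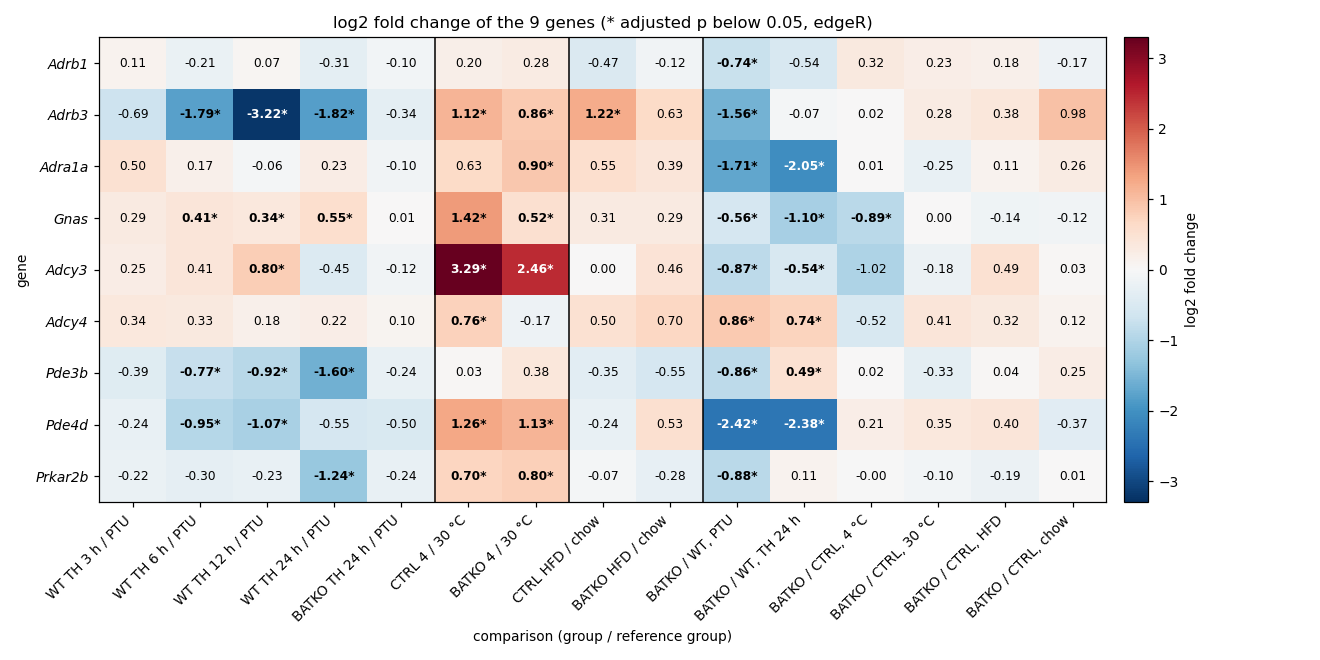
Log2 fold changes of the 9 genes (rows) in 15 comparisons (columns), red for higher and blue for lower in the first-named group, with an asterisk where the adjusted p of edgeR is below 0.05. Adrb3 is negative after hormone in WT mice and positive in the cold and on the HFD, and Adcy3 reaches 3.29 in the cold in CTRL mice.

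Across the 3 experiments, Adrb3 thus fell after hormone in WT mice and rose in CTRL mice in the cold and on the HFD. Gnas rose after hormone and in the cold, Pde4d fell after hormone at 6 and 12 h and rose in the cold, Prkar2b fell 24 h after hormone and rose in the cold, and Pde3b fell after hormone and passed no test in the cold. Adrb1 passed in 1 of the 21 comparisons, that of BATKO and WT mice under PTU. It was lost there without WT mouse B5 (-0.53, adjusted p = 0.119) or BATKO mouse 17 (-0.62, adjusted p = 0.0681).

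Other genes of the pathway were taken from a list of 81 symbols (other adrenergic receptors, G proteins, cyclases, phosphodiesterases, protein kinase A, anchoring proteins and EPAC, the CREB family, desensitization and other G protein coupled receptors of adipocytes), of which 79 were in the tables. At 24 h after hormone in WT mice, 13 of 64 tested rose and 16 fell (45.3%, beside 32.7% of all genes), with a median of -0.08. Adcy10, the soluble cyclase, had a median of 23.1 normalized counts under PTU and 250.8 at 24 h (3.39 ± 0.27, adjusted p = 9.05e-09 by edgeR), and Pde8a 646 and 1539 (1.25 ± 0.11, adjusted p = 2.7e-08). Sucnr1 and Hcar1, the receptors for succinate and lactate, fell by 2.44 and 2.39 on the log2 scale (adjusted p of 1.95e-05 and 0.000275). Falls outnumbered rises in other receptors (0 rose and 5 fell of 8 tested), G proteins (1 and 4 of 6), phosphodiesterases (3 and 4 of 11) and the CREB family (1 and 2 of 6). Rises outnumbered falls in cyclases (2 and 0 of 5), protein kinase A (1 and 0 of 7), anchoring proteins and EPAC (3 and 0 of 11) and desensitization (2 and 1 of 8). Of the 2 other adrenergic receptors tested, 0 passed. Over all genes, 17.2% rose and 15.5% fell. In BATKO mice 0 of 63 passed in edgeR, beside 0% of all genes.

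In the cold, 10 of 66 rose and 19 fell in CTRL mice (43.9%, beside 49.1% of all genes) and 11 rose and 13 fell in BATKO mice (36.4%, beside 40.3%). Hcar1 fell by 2.59 on the log2 scale in CTRL mice (adjusted p = 1.07e-05). Grk3, a kinase that desensitizes receptors, rose in CTRL mice from 231 to 459.5 to 1181 to 1796 (2.10 ± 0.22, adjusted p = 1.71e-06), and Pde4a by 1.81 (adjusted p = 7.23e-05). In BATKO mice Pde7b rose by 1.75 and Tshr by 1.18, and Ptger4 fell by 1.60 on the log2 scale. At 4 °C, 4 of 66 differed between genotypes (6.06%, beside 2.16%), a count that was 7 with DESeq2, 2 with only the groups compared and 1 to 6 with a mouse left out: among those named by size, Hcar1 (1.73 ± 0.33, adjusted p = 0.0161) and Pde1a (1.20 ± 0.16, adjusted p = 0.00105) were higher and Grk3 lower (-1.02 ± 0.22, adjusted p = 0.0266) in BATKO mice.

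Of 12 transcripts known to respond to cAMP (among them Ppargc1a, Dio2, Ucp1, the Nr4a genes, Fos and Sik1), 1 of 11 tested rose 24 h after hormone in WT mice and 5 fell (54.5%, beside 32.7% of all genes). Ucp1 rose by 0.93 (adjusted p = 0.00164 by edgeR), and Nr4a1, Nr4a2, Nr4a3, Sik1 and Gadd45g fell, with log2 fold changes from -3.60 to -1.43. In BATKO mice 0 of 11 passed in edgeR, beside 0% of all genes. In the cold, 5 of 12 rose and 5 fell in CTRL mice (83.3%, beside 49.1% of all genes) and 5 rose and 2 fell in BATKO mice (58.3%, beside 40.3%): Ppargc1a, Dio2, Ucp1, Gadd45g and Fgf21 rose in both, Irf4 and Per1 fell in both, and Fos, Nr4a1 and Sik1 fell in CTRL mice. On the HFD 5 of 11 fell in CTRL mice and none rose (45.5%, beside 3.94% of all genes). The members of the list thus did not move as a block: in the cold Ucp1, which encodes uncoupling protein 1, rose by 4.40 on the log2 scale in CTRL mice (adjusted p = 4.56e-06), while Fos, an immediate early gene, fell by 2.44 (adjusted p = 0.00986).

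The group means of the 15 groups, as log2 CPM centred within each experiment, were used to describe likeness among 8483 genes. The genes compared by r are measured in the same libraries, with a normalization per experiment. In the TH experiment the centring spans both genotypes, which differed in 70.3% of all genes under PTU. The values of r thus also hold this difference, which cannot be told apart from library set. Among the 9 genes, Adra1a and Pde4d were most alike (Pearson r = 0.92), followed by Adrb1 and Pde4d (0.83), Gnas and Adcy3 (0.83) and Gnas and Adra1a (0.81), while Adcy4 and Adrb1 were least alike (-0.67). Adrb3 had at most 0.53 with any of the other 8 (Pde4d). The most similar genes of all were Slc19a1 (0.90) for Adrb3, Slc35b1 (0.99) for Adra1a, Clp1 (0.94) for Adrb1, Mrps28 (0.98) for Gnas, Sco1 (0.98) for Adcy3, Acvrl1 (0.96) for Adcy4, Slc35f5 (0.97) for Pde3b, Alg9 (0.97) for Pde4d and M6pr (0.95) for Prkar2b.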

How the data were processed

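Total RNA from mouse BAT was sequenced on a NextSeq 500 after library preparation with the Lexogen SENSE total RNA kit. Per the paper's methods and the labels, the authors aligned reads to GRCm38 with Bowtie (Bowtie2 2.3.2.2 in the submitters' processing notes), dropped alignments with a mapping quality under 10, counted reads per gene with HTSeq and deposited raw counts, 1 table per experiment. The gene annotation and the strand setting of the counting are not given in the sources used here, and neither table nor label ties the groups to extraction or sequencing batches.

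Counts were tested with edgeR 4.0.16 (quasi-likelihood, TMM scaling, R 4.3.3), per experiment, over genes with a mean normalized count above 10, with Benjamini-Hochberg adjustment over all genes tested and a threshold of 0.05. WT time comparisons were fitted on the 20 WT mice, and comparisons with BATKO on all 30. Levels in the text come from the scaling of the whole experiment, so that overlap in a WT comparison may differ by a few counts. Fold changes are given with the SE that the F statistic implies. Alternatives were DESeq2 1.42.0, its size factors, no filter, a mean above 50, only the groups compared (or all 30 mice), and each mouse left out. Pathway genes beyond the 9 were named as the 2 largest called changes in each direction per comparison with a mean count above 50, of which 1 is not reported here. The 9 genes and the lists were chosen with earlier results of these data known. Nothing says that the mice were independently housed or processed, so p-values measure the spread between these mice. Depth was 7612059 to 18073627 counts per mouse.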

Additional observations from a re-analysis of the deposited data

Results flagged for a closer look

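Of 108 gene and group combinations with 4 or 5 mice, 6 had 1 mouse standing far from the others, beside 5.4 that chance would give at about 1 in 20. The measure is the gap to the nearest mouse as a share of the range of the group. In WT mice at 6 h, mouse B12 had 1998 normalized counts of Adrb3 against 888 to 1036 in the others (0.866). In WT mice at 12 h, mouse B21 had 746 of Adra1a against 558 to 573 (0.924). In WT mice at 3 h, mouse B11 had 140.8 of Adcy4 against 73.8 to 84.5 (0.839), and mouse B7 had 946 of Pde4d against 2183 to 2277 (0.929). Mouse B11 also had 15032 for the summed red blood cell markers against 2397 to 4135 in its group, and the part of this in Adcy4 was not tested. In BATKO mice at 30 °C, mouse 17 had 431 of Adcy4 against 143 to 213 (0.756), and under PTU mouse 3 had 473 of Pde4d against 391 to 410 (0.777).

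The response to 24 h of hormone differed between BATKO and WT mice, by the test of the difference itself in edgeR, for Gnas (-0.543 on the log2 scale), Pde3b (1.353) and Prkar2b (0.992). The design gives no fit with library set as a term, so genotype and library set cannot be told apart in the levels of the groups.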

How the results depend on the processing

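Of 189 values of the 9 genes (21 comparisons), 50 passed the test. Over 2691 alternative values 52 lost a call and 31 gained one, and 0 changed direction among those called in either fit, while some that were called in neither crossed 0, and 34 of the 50 calls were never lost. The number of the 9 genes called moved by over 1.5 times as follows, and the cause was not tested. At 3 h against PTU, 0 became 1 with DESeq2, 1 without a filter, 1 with a mean above 50 and 2 with only the groups compared. From 3 to 6 h, 0 became 1 without a filter, and from 6 to 12 h 1 became 0 in the fit of all 30 mice. Between genotypes at 4 °C, 1 became 2 with DESeq2, with its size factors, without a filter and with a mean above 50, and 0 with only the groups compared. The difference of the cold responses went from 0 to 1 with DESeq2. On the HFD, 1 in CTRL mice became 3 with DESeq2 and 3 without a filter, and 0 in BATKO mice became 1 with DESeq2. On chow, 0 between genotypes became 1 with DESeq2 and 1 without a filter. With each mouse left out, the count ranged from 0 to 1 at 3 h, from 0 to 1 from 3 to 6 h, from 0 to 1 from 6 to 12 h, from 3 to 6 in the cold in BATKO mice, from 0 to 2 between genotypes at 4 °C and from 1 to 3 on the HFD in CTRL mice. Counts over all genes moved by over 1.5 times in these: 364 from 3 to 6 h (637 without a filter, 190 with all 30 mice), 384 from 6 to 12 h (620 with DESeq2, 606 without a filter), 1480 from 12 to 24 h (790 with only the groups compared), 286 between genotypes at 4 °C (639 with DESeq2, 61 with only the groups compared), 1 at 30 °C (8 with DESeq2) and 149 for the difference of the cold responses (686 with DESeq2). In the diet experiment they were 509 in CTRL mice (872 with DESeq2, 1280 without a filter, 321 with only the groups compared), 9 in BATKO mice (267, 336 and 66), 0 between genotypes on the HFD (12 with DESeq2, 59 without a filter), 0 on chow (31, 290 and 114 with the same 3 settings) and 0 for the difference of responses (216 without a filter). With each mouse left out, counts over all genes moved by over 1.5 times at 3 h (684 to 1311, from 1195), from 3 to 6 h (103 to 408), from 6 to 12 h (111 to 380), from 12 to 24 h (889 to 1700), after hormone in BATKO mice (0 to 1), between genotypes at 4 °C (53 to 565), for the difference of the cold responses (5 to 907), on the HFD in CTRL mice (166 to 716) and in BATKO mice (0 to 9), and between genotypes on the HFD (0 to 10). No paired analysis was possible because the groups compared share fewer than 2 mouse numbers. Groups held 2 to 5 mice, and those of the diet experiment 2 to 4.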
